A study of Mus musculus with 6 samples.

Results

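The Apolipoprotein L (Apol) genes were followed by bulk RNA-Seq in regulatory T cells (Tregs) with and without Zfp335, a zinc finger transcription factor. They were taken as every row of the count table whose symbol starts with Apol followed by a digit, which gave 9 of 13709 rows: Apol9a, Apol9b, Apol7b, Apol7c, Apol7e, Apol8, Apol10b, Apol11b and Apol6. Apol9a and Apol9b, a pair of near-identical copies, were chosen by the size of their difference between KO and WT, so for the Apol rows that difference is described here and not tested. The WT group was 3 samples of CD4+YFP+CD25+ cells from Foxp3Cre mice, and the KO group was 3 samples of the same cells from Foxp3Cre Zfp335fl/fl mice, all on C57BL/6 and, per the study's methods, 2 weeks old. In both groups Cre and YFP are made from the Foxp3 locus, so the WT cells carry Cre too, and the deletion takes place in cells that have turned on Foxp3. The labels give both lymph nodes and spleen as the source. They do not say how many mice went into a sample, so the spread between samples may be technical.

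APOL proteins bind lipids and act at membranes, and human APOL1 is known for killing trypanosomes. In mice most of the family lies as a cluster of related genes on chromosome 15. Apol9a and Apol9b are known as genes switched on by interferon, with an antiviral role and with binding to phosphatidylethanolamine and to prohibitin. Type I interferons signal through the receptor subunits Ifnar1 and Ifnar2, the kinases Jak1 and Tyk2 and a complex that holds Stat2 and Irf9, which binds the interferon-stimulated response element (ISRE) in promoters. Interferon gamma signals through its receptor subunits Ifngr1 and Ifngr2 and the kinases Jak1 and Jak2.

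In RefSeq on GRCm38.p6, which is the same assembly as mm10, Apol9a spans chr15:77403789-77411080 on the minus strand and Apol9b spans chr15:77729047-77736382 on the plus strand. The copies lie 318 kb apart. Apol7e ends 9.76 kb before Apol9b and Apol8 lies 8.73 kb after it, while Apol7b lies 11.1 kb after Apol9a. Of 13 listed Apol genes, Apol7a, Apol7d, Apol10a and Apol11a had no row among those analysed. Apol7d is annotated as a long noncoding RNA on chromosome 1, and the others lie on chromosome 15. The coding sequences of Apol9a and Apol9b, each 930 nt in GENCODE M21, are 98.49% identical with 14 mismatches, whereas the coding sequences of the 7 other Apol rows are 50.38% to 59% identical to that of Apol9b. Of the 100-nt stretches of the longest transcript, 41.1% for Apol9a and 34.9% for Apol9b occur in the other copy without a mismatch. Since 1 alignment was kept per read, reads of such stretches can be counted on either copy, and values of each copy are uncertain to that extent. Apol7b and Apol7e are a further such pair, with 56.9% of the 100-nt stretches of Apol7b present in Apol7e.

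The sequence around the start site shows how alike the copies are. Over the 278 nt that the promoter windows of Apol9a and Apol9b share (each 250 nt before to 50 nt after the RefSeq start site), all 278 bases are identical. The promoters were searched on both strands for the core letters of the ISRE, which are GAAA, any 2 bases and GAAA again. The windows of 60 nt below are shown because Apol9a, Apol9b and Apol7e, whose levels in the genotypes are set side by side below, all hold the motif. Each is written 5′ to 3′ on the strand of its gene, where the motif appears as its reverse complement, and capitals mark the bases covered by a match. They lie at chr15:77411115-77411174 (minus) for Apol9a, chr15:77729000-77729059 (plus) for Apol9b, chr15:77698818-77698877 (plus) for Apol7e, chr15:77533346-77533405 (minus) for Apol7c, chr15:77447467-77447526 (minus) for Apol7b, chr15:77596105-77596164 (minus) for Apol10b and chr15:77643312-77643371 (minus) for Apol11b.
Apol9a: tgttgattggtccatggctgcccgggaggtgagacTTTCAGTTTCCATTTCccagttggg
Apol9b: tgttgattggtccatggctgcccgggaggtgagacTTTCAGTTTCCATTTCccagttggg
Apol7e: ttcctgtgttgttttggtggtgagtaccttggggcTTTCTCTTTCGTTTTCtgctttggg
Apol7c: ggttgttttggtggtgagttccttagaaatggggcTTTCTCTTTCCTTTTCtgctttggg
Apol7b: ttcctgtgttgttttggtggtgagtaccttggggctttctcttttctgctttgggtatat
Apol10b: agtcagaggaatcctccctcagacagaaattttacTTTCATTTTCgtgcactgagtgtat
Apol11b: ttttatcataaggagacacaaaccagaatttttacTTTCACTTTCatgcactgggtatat
Apol9a, Apol9b, Apol7e and Apol7c each hold 2 matches that overlap one another, and Apol10b and Apol11b hold 1. Apol7b, whose window is otherwise close to that of Apol7e, holds 0, as does the promoter of Apol8, and Apol6 had no promoter entry. So 6 of the 8 Apol rows with a promoter hold the letters. They were found in 3.99% of all 27025 genes with a promoter and in 14 of the 27 interferon-stimulated genes listed below that had one. A gene counted where any of its promoters, all of the same length, matched. The 8 rows are not independent, as the promoters of Apol9a and Apol9b are identical over 278 nt. The letters of the interferon gamma-activated site, which are TTC, any 3 bases and GAA, were found for 1 of the 8 rows, Apol11b. The share over all genes with a promoter was 9.55%. The windows shown use the first listed start site of each gene. For Apol7e and Apol10b that site lies well inside the gene, which spans chr15:77695706-77719288 and chr15:77584154-77598542 in turn. For Apol9b and Apol7c it also lies inside the gene, but close to its first base. A match describes the letters in the window and does not show that a factor binds there.

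The libraries held 32032631 to 40728419 counts, at which 3 counts, the smallest level taken as different from 0, equal 0.0747 to 0.0913 CPM. CPM is the count of a gene per 1000000 counts of its library, after the total was adjusted by its TMM factor (trimmed mean of M values). Zfp335 itself was at 94.3 to 102.6 CPM in the WT samples and 37.0 to 40.2 CPM in the KO samples (log2 fold change -1.37 ± 0.07, SE), and its adjusted p was 2.14e-05 by edgeR's quasi-likelihood test. Foxp3 and Ikzf2 were called lower in KO (log2 fold changes -0.88 and -1.11). Cd4 (0.26), Cd3e (-0.45) and Cd3g (-0.49) failed only the fold cutoff, with adjusted p-values by edgeR of 0.0143, 0.0114 and 0.0136. Il2ra (-0.12) and Ctla4 (-0.41) passed none of the cutoffs. Foxp3 was at 738.1, 642.1 and 1189.8 CPM in WT and at 459.7, 472.3 and 463.4 CPM in KO. Its fold change is thus larger with WT replicate 3, and its fit without that sample is not given here. The cutoffs for a call were a fold change above 1.5, p under 0.05 and adjusted p under 0.1. WT replicate 3 stood apart, with a median chi-square of its counts against WT replicates 1 and 2 that was 26.26 and 25.82 times sampling noise where WT replicates 1 and 2 had 10.07. It was high for interferon-stimulated genes, so results that rest on it are given with and without it. Markers of myeloid cells and dendritic cells summed to 8.95 to 21.0 CPM in WT and 50 to 56 CPM in KO, with 7 of 9 markers measured called higher, beside 11.9% of all genes. Markers of CD8 T and NK cells summed to 12.9 to 19.0 and 27.0 to 28.9 CPM, with 3 of 5 called higher. Most of that rise was in Eomes, at a mean of 2.31 CPM in WT and 11.3 CPM in KO, while Cd8b1 was at 9.16 and 8.69 CPM. Markers of B cells summed to 19.1 to 21.5 and 13.0 to 13.5 CPM, with 1 of 6 called lower, beside 12.5% of all genes. S100a8 and S100a9, which are made by neutrophils and monocytes, were at 0 in all 3 WT samples. In KO S100a8 was at 2.82, 2.17 and 1.30 CPM and S100a9 at 2.60, 1.67 and 2.27 CPM, and both were called higher. The paper also reports high levels of both in a Treg subset that it calls dysfunctional and finds expanded in KO. The part of myeloid, CD8 T, NK and B cells in the results below was not tested. In sorted bulk samples fewer cells of a type cannot be told apart from less RNA per cell.

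Apol9b, the more abundant copy, was nearly lost from KO Tregs. Its level in WT replicates 1 to 3 was 61.9, 64.6 and 61.1 CPM, and in KO replicates 1 to 3 it was 1.37, 1.54 and 1.90 CPM. The lowest WT sample was thus far above the highest KO sample, and the KO mean of 1.60 ± 0.271 CPM (SD, n = 3) was 2.56% of the WT mean of 62.5 ± 1.80 CPM (SD, n = 3). The log2 fold change was -5.28 ± 0.13 (SE), with a 95% interval of -5.59 to -4.97, or 39.0-fold between the means. The counts behind these levels were 2280, 2121 and 2035 in WT and 50, 62 and 67 in KO, so the KO values are low but well above 3 counts. In WT the 3 samples were close, with a coefficient of variation of 2.88%, while the median over genes at 5 CPM or more in WT was 10.4%.

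Apol9a fell alongside its copy. It was at 15.7, 17.3 and 13.0 CPM in WT and at 0.328, 0.722 and 0.567 CPM in KO, from 579, 567 and 434 counts and 12, 29 and 20 counts. Again every KO sample lay below every WT sample. The KO mean of 0.539 ± 0.198 CPM (SD, n = 3) was 3.51% of the WT mean of 15.3 ± 2.14 CPM (SD, n = 3), and the log2 fold change was -4.81 ± 0.28 (SE), with a 95% interval of -5.47 to -4.16. Among the 9882 genes tested with a mean of at least 5 CPM, Apol9b had the lowest fitted log2 fold change and Apol9a was at place 3 from the lowest, a mean that the pair reached through the WT samples alone. Among all 13594 genes tested they were at places 5 and 10. Of all 13594 genes tested, 12.5% were called lower in KO, 11.9% higher and 24.4% either way, and 27.6% had every KO sample below every WT sample. These shares are given as background, since the pair was selected on this difference.

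Because reads can be exchanged between the copies, the rows were also summed. The sum was at 77.7, 81.8 and 74.2 CPM in WT and at 1.70, 2.27 and 2.47 CPM in KO, a log2 fold change of -5.18 ± 0.14 (SE). The fall therefore did not depend on how reads were divided between the copies. Apol9a held 20.3%, 21.1% and 17.6% of the summed counts in WT replicates 1 to 3, with 95% Wilson intervals of 18.8% to 21.8%, 19.6% to 22.7% and 16.1% to 19.1%. In KO it held 19.4%, 31.9% and 23.0%, from 62, 91 and 87 summed counts, and the intervals were 11.4% to 30.9%, 23.2% to 42.0% and 15.4% to 32.9%. Apart from KO replicate 2, the KO intervals overlapped those of WT. The shares averaged 19.6% ± 1.84 in WT and 24.7% ± 6.44 in KO (SD, n = 3). These intervals treat each read as a separate draw and leave out the spread between samples. Reads copied by PCR do not stand for separate molecules, so the intervals may be too narrow even for counting error.

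Apol7e, the other member with a sizeable level, had like levels in both genotypes. It was at 50, 49.6 and 57.0 CPM in WT and at 57.8, 53.2 and 53.0 CPM in KO, and the groups overlapped. The log2 fold change was 0.07 ± 0.08 (SE), with a 95% interval of -0.13 to 0.26. Apol7e lies 9.76 kb from Apol9b. The promoter window read for it, at a start site inside the gene, also holds 2 overlapping ISRE matches.

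The remaining rows had low levels and a wide spread. Apol8 was at 2.93, 1.16 and 9.55 CPM in WT and at 7.06, 8.49 and 6.27 CPM in KO. WT replicate 3 was the highest of the 6 samples and WT replicates 1 and 2 were the lowest. The log2 fold change was 0.68 ± 0.63 (SE) over all samples and 1.81 ± 0.32 (SE) without WT replicate 3. Apol7b was at 0, 0.365 and 4.03 CPM in WT and at 0.876, 0.597 and 0.737 CPM in KO, so here too WT replicate 3 was the highest. Its log2 fold change was -0.98 ± 1.28 (SE) over all samples and 2.03 ± 0.92 (SE) without WT replicate 3, with the opposite sign. In WT replicate 1 no read was counted on Apol7b while 1842 were counted on Apol7e, the row with which it shares most of its sequence.

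Apol7c ranged from 0.691 to 1.04 CPM in WT and from 0.348 to 1.33 CPM in KO, and its log2 fold change was -0.05 ± 0.54 (SE). Apol10b ranged from 0.679 to 1.86 CPM in WT and from 0.657 to 1.39 CPM in KO, with -0.26 ± 0.50 (SE). Apol6, which overlaps the myoglobin gene Mb, ranged from 0.0913 to 0.761 CPM in WT and from 0.0851 to 0.520 CPM in KO, with -0.75 ± 0.95 (SE). Apol11b had 15, 29 and 2 counts in WT and 8, 5 and 8 in KO, and was removed by the filter on low counts, so 8 of the 9 rows were fitted. In each of these rows the groups overlapped. Over the 6 fitted rows other than Apol9a and Apol9b the median log2 fold change was -0.16, with a range of -0.98 to 0.68, beside a median of -0.04 over all genes tested.

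**Figure D1:**
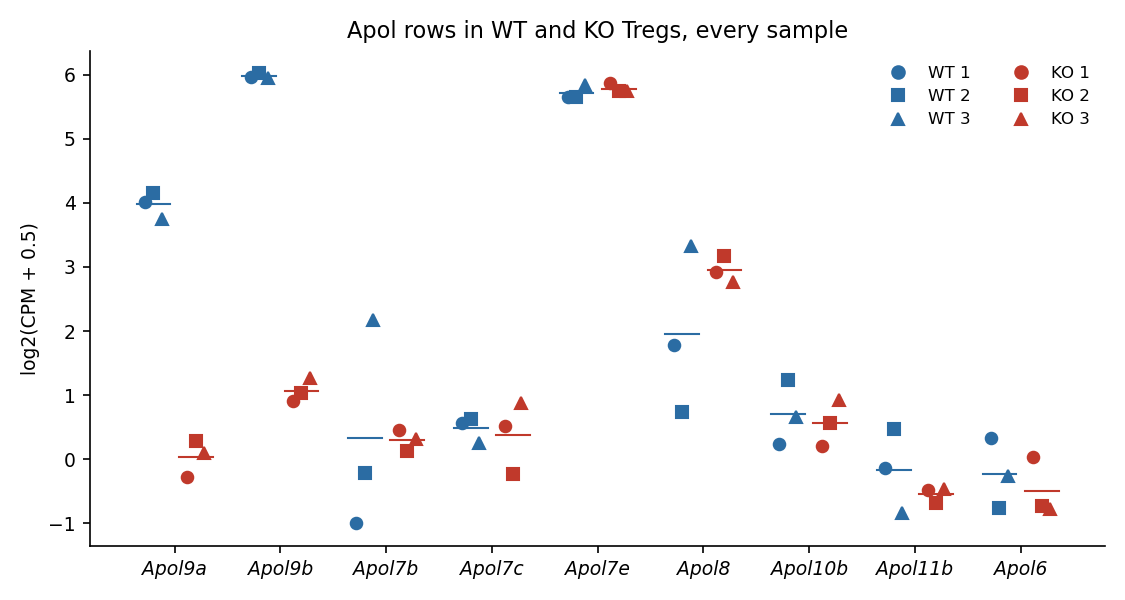
Level of each Apol row in every sample, as log2(CPM + 0.5); blue symbols are the 3 WT samples, red symbols the 3 KO samples, and lines are group means. Apol9a and Apol9b have every KO sample far below every WT sample, Apol7e is level at 49.6 to 57.8 CPM, and WT 3 is the highest sample for Apol7b and Apol8.

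Levels of different genes were compared per length, as CPM per kilobase of the longest transcript. In WT the order was Apol9b (39.8 ± 1.15), Apol7e (23.7 ± 1.89), Apol9a (10 ± 1.40) and Apol8 (1.62 ± 1.58), and the other 5 rows were between 0.170 and 0.657 (mean ± SD, n = 3). The samples of Apol9b, Apol7e and Apol9a did not overlap one another, whereas from Apol8 downwards the samples of each row overlapped those of the next. Apol9b exceeded 86.0% of the 13389 rows with a length in WT and 22.6% of them in KO. In KO the order was Apol7e (24.8 ± 1.22), Apol8 (2.60 ± 0.401) and Apol9b (1.02 ± 0.172), so Apol7e was the most abundant Apol transcript, and Apol9a (0.352 ± 0.130) was level with Apol7c, Apol10b and Apol7b, whose samples overlapped its own.

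To ask whether the fall was shared along the chromosome, all genes with a row within 500 kb of an Apol row were read from the same fit. Of 31 such genes, 3 were called higher and 7 lower in KO, beside 11.9% and 12.5% of all genes, and their median log2 fold change was -0.22. All 10 called genes lie on the Apol6 side, the nearest being Zfp647 at 119.4 kb, and 0 of the 5 genes within 100 kb of an Apol row were called. On the Apol9b side, Myh9, a non-muscle myosin heavy chain that begins 3.52 kb after Apol8 and was not called, was at 2415.8, 2378.7 and 1917.3 CPM in WT and at 2504.8, 2476.6 and 2465.2 CPM in KO, and its log2 fold change was 0.15 ± 0.10 (SE, adjusted p = 0.255 by edgeR). Txn2, mitochondrial thioredoxin, had -0.20 ± 0.08 (SE) and Eif3d, a translation initiation factor subunit, 0.17 ± 0.06 (SE), both under the fold cutoff. Foxred2 was at -0.58 ± 0.11 (SE), just short of that cutoff. At the other end, Rbfox2, an RNA splicing factor 21.9 kb from the nearest Apol row, was under 1 CPM in every sample with 0.21 ± 0.65 (SE). None of these 5 genes was called. The 2 pseudogenes that lie within Apol7e, Gm8233 and Gm18911, ranged from 0.224 to 1.19 CPM, and their log2 fold changes were -0.42 ± 0.60 and 0.10 ± 0.66 (SE).

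The called genes farther away moved by much less than Apol9b. Arhgap39 fell from 49.4, 40.2 and 42.6 CPM to 13.8, 13.0 and 14.9 CPM, and its log2 fold change was -1.67 ± 0.11 (SE, adjusted p = 4.81e-05 by edgeR). The kinesin Kifc2 fell by 1.54, Zfp647 by 1.40, Adck5 by 1.04, Mfsd3 by 0.83, C030006K11Rik by 0.66 and the riboflavin transporter Slc52a2 by 0.62 on the log2 scale. The DNA helicase Recql4 rose by 1.12, the DNA repair factor Tonsl by 0.73 and the zinc transporter Slc39a4 by 0.61. Adck5 overlaps Cpsf1, Kifc2 overlaps Cyhr1, Mfsd3 overlaps Recql4 and C030006K11Rik overlaps Lrrc24, so reads at those places are uncertain where the strand was not counted. The 31 genes ranged from -1.67 to 1.12, and Apol9a and Apol9b were at -4.81 and -5.28. The pair was chosen by the size of this difference. A larger move than that of its neighbours was thus set by the choice and is not a result. Without WT replicate 3 the counts were 2 higher and 8 lower.

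**Figure D2:**
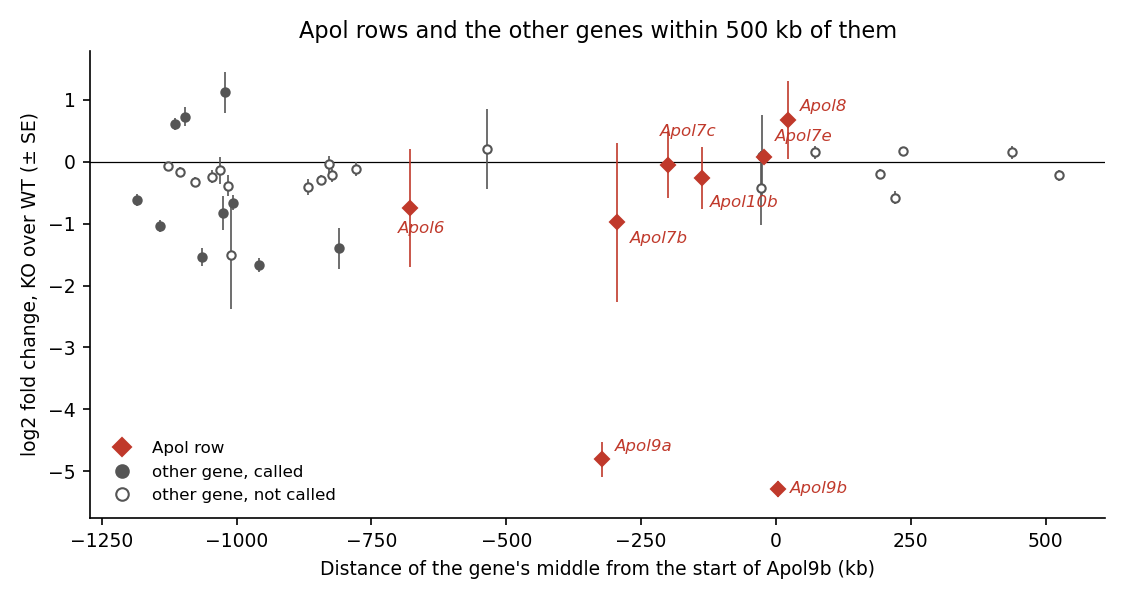
Fitted log2 fold change (KO over WT, ± SE) of the 8 fitted Apol rows (red) and 31 other genes (grey, filled where called) by the distance of the gene's middle from the start of Apol9b, in kb. Apol9a and Apol9b lie near -5, the other Apol rows lie between -0.98 and 0.68, and the called neighbours lie beyond Apol6.

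Since Apol9a and Apol9b are known as interferon-stimulated genes, they were set beside other such genes. The list held 40 genes, of which 38 had a row, such as Ifit1, Mx1, Isg15 and Oas2. In KO, 5 were called higher and 0 lower, beside 11.9% and 12.5% of all genes, with a median log2 fold change of 0.26. The called genes were Oasl2 (1.41 ± 0.54, SE), Oas3 (1.39 ± 0.58), the nucleic acid sensor Zbp1 (0.68 ± 0.24), Parp9 (0.65 ± 0.23) and Oas1g (1.85 ± 0.66), where Oasl2, Oas3 and Oas1g belong to the family of RNA sensors that make oligoadenylates. Oas1g was at 0.183 to 2.16 CPM and shares sequence with Oas1a, and Parp9 overlaps Dtx3l, so both are uncertain. Their adjusted p-values by edgeR lay between 0.0563 and 0.0975. In 6 of the 38 genes every KO sample lay above every WT sample, which holds for 26.2% of all genes, and in 0 every KO sample lay below, which holds for 27.6%.

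These counts changed with the samples used, most of all with WT replicate 3. All 38 genes were highest in that sample among the WT samples, with a median ratio of 2.24-fold to the mean of WT replicates 1 and 2 on the scale of CPM + 0.5. Ifit1, an RNA-binding antiviral protein, was at 20.3, 21.0 and 107.9 CPM in WT and at 31.9, 30.9 and 30.0 CPM in KO. The antiviral GTPase Mx1 was at 17.0, 14.3 and 83.8 CPM in WT and at 43.3, 37.7 and 41.7 CPM in KO. Both genes were thus higher in KO than in WT replicates 1 and 2 and lower than in WT replicate 3. Without WT replicate 3, 25 of the 38 genes were called higher and 0 lower, beside 13.6% of all genes called higher in that fit, and the median was 0.85. Leaving out each other sample in turn gave 0 or 1 called genes, and without WT replicate 1 the 1 called gene was lower.

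Apol9a and Apol9b did not follow this pattern. In WT replicate 3, where all 38 listed genes were raised, the log2 ratio to the mean of WT replicates 1 and 2 was -0.05 for Apol9b and -0.33 for Apol9a, while the lowest of the 38 was 0.66. Apol7e was at 0.19, and Apol8 and Apol7b were at 1.98 and 2.73. Without WT replicate 3 the log2 fold changes of Apol9b and Apol9a were -5.31 ± 0.12 and -4.92 ± 0.24 (SE), a fall for which the pair was chosen. The 38 genes ranged from -0.02 to 2.65 in that fit. The promoters of Apol9a and Apol9b hold 2 matches to the ISRE letters, as printed above.

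**Figure D3:**
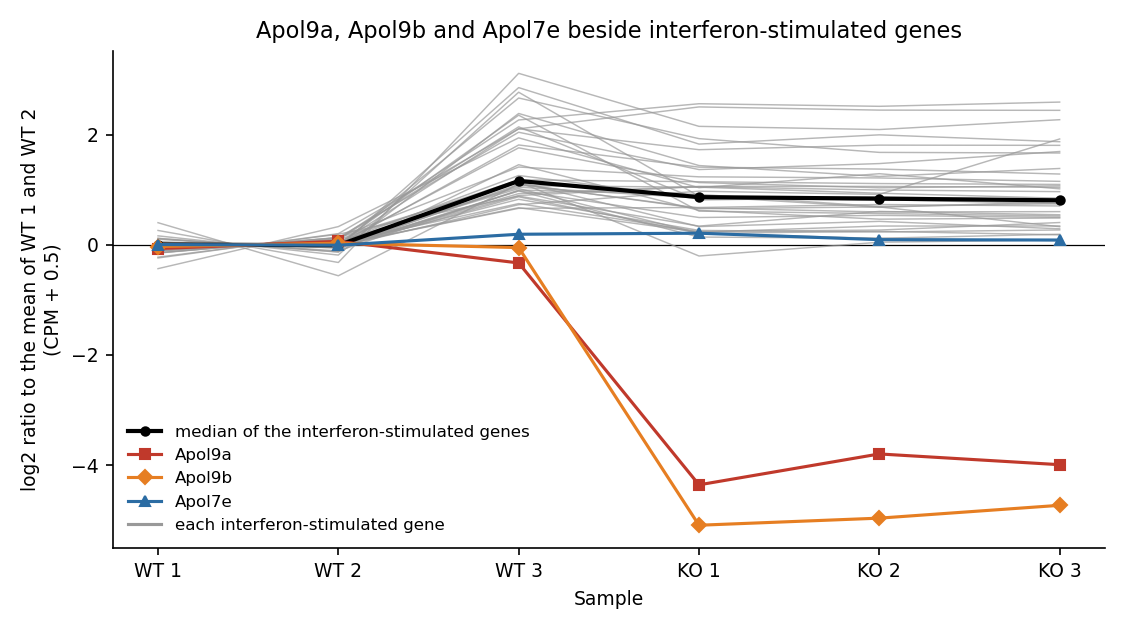
log2 ratio of each sample to the mean of WT 1 and WT 2, from CPM + 0.5, for 38 interferon-stimulated genes (grey, median in black), Apol9a, Apol9b and Apol7e; lines join the values of a gene. The grey lines rise in WT 3 and stay at or above the baseline in nearly all KO values, Apol7e stays near 0, and Apol9a and Apol9b are near 0 in WT and between -5.09 and -3.80 in KO.

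Most of the listed genes induced mainly by interferon gamma rose in KO. Of 26 such genes, 15 were called higher and 0 lower, beside 11.9% and 12.5% of all genes, and the median log2 fold change was 0.72. Gbp2, a GTPase that acts on vacuoles of pathogens, was at 71.6, 78.4 and 130.2 CPM in WT and at 505.2, 478.2 and 476.6 CPM in KO, and its log2 fold change was 2.38 ± 0.22 (SE, adjusted p = 0.000202 by edgeR). The related GTPases Iigp1 and Tgtp1 rose by 1.93 ± 0.32 and 1.5 ± 0.17 (SE). Tgtp1 shares 80% of its 100-nt stretches with Tgtp2, so its own value is uncertain. Without WT replicate 3, 19 were called higher. The markers of myeloid and of CD8 T and NK cells given above moved in the same direction, and their part was not tested.

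Ifng, which encodes interferon gamma itself, was at 3.78, 4.54 and 2.64 CPM in WT and at 82.8, 84.7 and 84.4 CPM in KO. The groups were far apart, and the log2 fold change was 4.52 ± 0.18 (SE, adjusted p = 7.11e-06 by edgeR). Of 10 listed interferon genes it was the 1 with a row. Of 10 receptor and signalling genes, 2 were called higher and 1 lower, beside 11.9% and 12.5% of all genes, and the median log2 fold change was -0.11. The interferon gamma receptor subunit Ifngr1 rose by 1.23 ± 0.22 and the kinase Jak2 by 0.89 ± 0.11 (SE), while the type I interferon receptor subunit Ifnar2 fell by 0.81 ± 0.07 (SE) on the log2 scale. Ifnar2 was at 84.1, 81.3 and 78.0 CPM in WT and at 49.2, 44.7 and 45.1 CPM in KO. The other 7 were not called. Of these, Ifnar1 had -0.34 ± 0.07, Ifngr2 -0.56 ± 0.07, Tyk2 -0.39 ± 0.09, Jak1 -0.15 ± 0.07, Stat2 0.50 ± 0.23 and Irf9 -0.08 ± 0.14 (log2 fold change ± SE). Without WT replicate 3, 4 were called higher and 1 lower.

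The prohibitins Phb and Phb2, scaffold proteins of the inner mitochondrial membrane, had log2 fold changes of -0.01 ± 0.08 and -0.02 ± 0.08 (SE), with 95% intervals of -0.19 to 0.18 and -0.21 to 0.16. Phb shares 36.5% of its 100-nt stretches with Gm7666, so its own value is uncertain. Of 16 other listed apolipoprotein genes and genes named after them, 6 had a row, 1 was called higher and 1 lower, beside 11.9% and 12.5% of all genes. Apoe, the lipid carrier of plasma lipoproteins, was at 17.6, 18.1 and 26.0 CPM in WT and at 8.27, 8.26 and 8.34 CPM in KO, and its log2 fold change was -1.31 ± 0.17 (SE, adjusted p = 0.000891 by edgeR). Apoo, a subunit of the mitochondrial MICOS complex, rose by 0.74 ± 0.17 (SE), and Apool, of the same complex, had 0.12 ± 0.13 (SE). Apoo shares 43.5% of its 100-nt stretches with Apoo-ps, so its own value is uncertain. Apoc4, Apom and Apold1 were under 2 CPM in every sample and were not called.

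**Figure D4:**
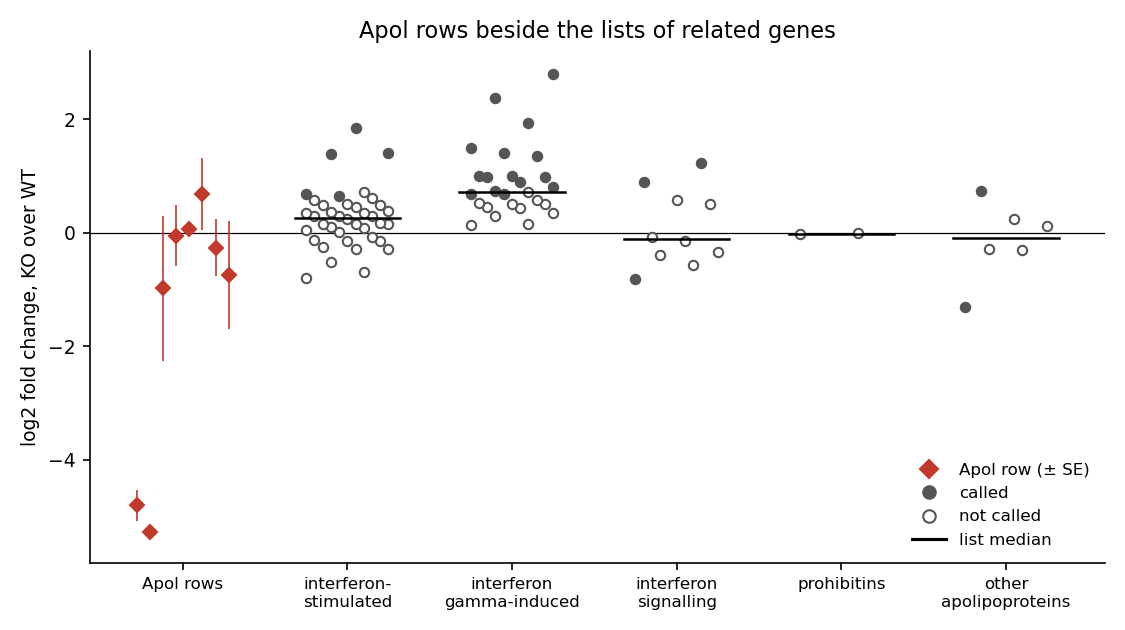
Fitted log2 fold change (KO over WT) of the 8 fitted Apol rows (red, ± SE) and of the members of 5 lists (grey, filled where called), with the list median as a line. Apol9a and Apol9b, chosen by the size of this difference, lie below every listed gene, while the other Apol rows lie between -0.98 and 0.68.

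The genes whose profile over the 6 samples was most like that of the copies were found by the root mean square distance of log2(CPM + 0.5) after centring each gene. The closest to Apol9b was Apol9a (distance 0.52), followed by Npas4 (0.53), Ptpn5 (0.70), Ncmap (0.84) and Prg4 (0.87). The closest to Apol9a were Npas4 (0.35), Ptpn5 (0.36), Chdh (0.45), Noxa1 (0.47) and D430019H16Rik (0.50), and Apol9b was at place 7. Npas4, a transcription factor induced by activity in neurons, was at 28.2, 21.4 and 12.3 CPM in WT and at 0.630, 0.697 and 0.425 CPM in KO. The tyrosine phosphatase Ptpn5 was at 16.9, 18.1 and 13.0 CPM in WT and at 1.15, 0.672 and 0.652 CPM in KO. Both had every KO sample far below every WT sample, as the measure of likeness requires. Ncmap and Prg4 were highest in WT replicate 3, at 42.5 and 45.4 CPM, unlike Apol9b. Ranked by Pearson's r instead, which disregards the size of the difference, 0 of the 5 genes closest to Apol9b and 1 of the 5 closest to Apol9a stayed among the top 5. The ranking is a description over 6 samples in 2 groups.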

How the data were processed

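Bulk RNA-Seq of Tregs from 3 WT and 3 KO samples was used. Per the study's methods, the authors filtered reads with SOAPnuke, aligned them with HISAT2 to mm10 so that a read kept 1 alignment, and used StringTie for quantification. The deposited table held whole-number counts per gene without normalization. The strand setting, the annotation and how the counts became whole numbers are not given in the sources used here. No row summed to under 60 counts, so low genes had been removed.

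Counts were fitted with edgeR 4.0.16 (R 4.3.3), with filterByExpr at a minimum count of 10, TMM scaling, the quasi-likelihood F-test without covariates and two-sided p-values with Benjamini-Hochberg adjustment over 13594 genes. A call needed a fold change above 1.5, p under 0.05 and adjusted p under 0.1, the study's cutoffs. SE is the log2 fold change divided by the square root of F. The procedure was tested on simulated data. CPM uses TMM-scaled totals. No pair of samples agreed within sampling noise.

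The members and lists were chosen with earlier results of these data known. Named genes are Zfp335, every Apol row, the 3 largest rises and falls called in each list at 5 CPM or more, signalling, prohibitin and apolipoprotein genes (1 member counted in its list is not reported here), genes within 500 kb and the 5 closest profiles. Ifit1, Mx1, Isg15, Oas2, Oas1g and Parp9 were named after their values were seen. Promoters and positions came from RefSeq GRCm38.p6, which held 99.92% of the symbols, and transcripts from GENCODE M21. Protein sequences were not used here. Alternatives were DESeq2 1.42.0, RLE size factors, library totals alone, other filters, a replicate block, calls by an adjusted p under 0.05 whatever the fold, summed copies and leaving out each sample.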

Additional observations from a re-analysis of the deposited data

How the results depend on the processing

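The fall of Apol9a and Apol9b kept its direction under every alternative run. Leaving out each sample in turn gave log2 fold changes of -5.09 to -4.56 for Apol9a and -5.42 to -5.18 for Apol9b, and the other settings gave -4.86 to -4.80 and -5.32 to -5.27. For Apol7b the sign turned without WT replicate 3 (2.03) and with a replicate block (0.54). Apol6 turned to 0.15 without WT replicate 1 and Apol10b to 0.19 without WT replicate 2. Apol7c, at -0.05 over all samples, turned to 0.01, 0.05 and 0.33 without WT replicate 1, WT replicate 2 and KO replicate 2. Without WT replicate 3, Apol8 had 1.81, and Apol11b, which then passed the filter, had -1.75. The number of genes called went from 3318 to 5244 with an adjusted p under 0.05 and no fold cutoff, and to 2867 to 3667 when a sample was left out. With that cutoff 0 interferon-stimulated and 7 signalling genes were called, against 5 and 3, and 6 of the 38 interferon-stimulated genes had an unadjusted p under 0.05. Leaving out a sample gave 0 to 25 interferon-stimulated genes, 13 to 19 interferon gamma-induced genes, 3 to 5 signalling genes and 9 to 10 neighbouring genes. DESeq2 called 4 interferon-stimulated genes. Deviations of same-numbered WT and KO samples from their group means had correlations of 0.0576, 0.0328 and -0.00419. These were not set against those of other pairs, so they do not settle whether the samples were paired. With a replicate block 3190 genes, 6 interferon-stimulated and 17 interferon gamma-induced genes were called. The causes of these changes were not tested. Depth limits Apol6, Apol7b, Apol7c, Apol10b and Apol11b, which rest on few counts.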
